A study of Homo sapiens with 16 samples.

Results

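The regions described here are additional HOXB13 sites that appeared with both forms of re-expressed HOXB13. Each is a HOXB13 peak of LNCaP cells carrying a HOXB13 short hairpin RNA together with wild-type HOXB13 (WT). Each overlaps by at least 1 bp a peak of cells carrying the hairpin together with the G84E variant, and none overlaps a peak of the control cells. The rule gave 55496 of the 190879 WT peaks, or 29.1%, and they are called additional shared sites below. They made up 42.9% of the 129240 WT peaks that lay off every control HOXB13 peak, and they met 55497 of the 191796 G84E peaks (28.9%). The WT, G84E and control HOXB13 lists chose these regions, so the regions were selected on HOXB13 peak calls of those libraries, whose values are given as a description only.

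HOXB13 is a transcription factor of the HOX family expressed in prostate epithelium, which binds DNA through its homeodomain and works at enhancers together with the androgen receptor and FOXA1. G84E is a germline variant of HOXB13 that is known for raising the risk of prostate cancer, and it lies outside the homeodomain, in the part of the protein that contacts MEIS cofactors. HDAC3 removes acetyl groups from histones as part of the NCOR and SMRT corepressor complexes, and HDAC1 belongs to several other deacetylase complexes. Acetylation of histone H3 at lysine 27 (H3K27ac) marks active promoters and enhancers, and ATAC-seq maps chromatin that is open to a transposase.

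HOXB13 ChIP-seq of LNCaP, an androgen-sensitive prostate cancer cell line, covered 4 groups. These were the hairpin with WT lentivirus, the hairpin with G84E lentivirus, the hairpin alone, and the control vector pGIPZ. Cells were infected for 7 days, so both re-expression groups also carried the hairpin, and their HOXB13 came from a lentivirus. ATAC-seq and HDAC3 ChIP-seq were made in LNCaP with the hairpin and with pGIPZ, and HDAC1 ChIP-seq with pGIPZ alone. PC-3, an androgen-independent prostate cancer line, gave H3K27ac with the hairpin and with pGIPZ, and HOXB13 with pGIPZ alone. No ATAC, HDAC1 or HDAC3 library of the re-expression cells was analysed, so those lists describe the sites in cells with a control vector or a hairpin.

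Each group held 1 library, so differences have no replicate check, no p-value is given, and every interval covers counting error only. The 12 libraries held 13.5 to 47.2 M tags (M for mega). The HOXB13 libraries held 40.3 M tags with WT, 44.2 M with G84E, 47.2 M with the hairpin alone and 34.4 M in the control. Tags within called peaks amounted to 17.1% of the library with WT, 15.6% with G84E and 9.17% in the control, whose list held 91430 peaks. More re-expressed protein, better enrichment and greater depth cannot be told apart here as the source of the additional peaks. PC-3 HOXB13 was precipitated with another antibody (Santa Cruz) than LNCaP HOXB13 (Abcam), and no input library was used in calling peaks. Of the additional shared sites, 55154 lay on chromosomes 1 to 22 and X and 342 elsewhere, and 171 were met by 9 or more of the 12 lists.

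The additional shared sites were weaker peaks than the restored sites and slightly stronger than the typical WT peak. Their median WT normalized tag count, which is tags in the peak per 10000000 tags of the library, was 6.70, or 27 tags, with a 5th percentile of 4.47 and a 95th percentile of 14.9, against a median of 6.46 over the whole WT list. The median was 11.2 at the 49564 restored sites, which are WT peaks that overlap both a G84E and a control peak. It was 5.46 at the 73744 additional sites called with WT alone. The authors' fold over the local background had a median of 6.98 at the additional shared sites, 9.75 at the restored sites and 5.81 at the WT-alone sites. Of all WT tags in peaks, 25.5% lay in additional shared sites and 43.7% in restored sites. When all WT peaks were put into 10 equal groups of tag count, additional shared sites made up 22.1% of the weakest group, 37.2% of the eighth and 14.1% of the strongest, where restored sites made up 82.6%. Additional shared sites thus peaked in share at intermediate strength.

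The control list's header gives a tag threshold of 16, or 4.66 normalized tags, although counts in that list go down to 3.49 and a call also needed 4-fold over the local background. WT and G84E were both at or above 4.66 at 45871 additional shared sites (82.7%), at or above 2 times that level at 6982 (12.6%) and at or above 3 times that level at 1704 (3.07%). The WT count reached the control list's own median of 7.28 at 23258 sites (41.9%). Control tags at places with no control peak are not in the lists, so absence of a control peak is not a count of 0, and these counts do not say which sites the control library could have called.

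The boundary of the rule ran through a small share of the regions. The overlap with the G84E peak had a median of 236 bp, and it was under 50 bp at 1008 additional shared sites (1.82%). At chr15:96657295-96657569 the overlap was 1 bp, with 6.11 normalized tags in G84E and 14.4 in WT. Just outside the rule, 1.16% of the WT-alone sites lay within 50 bp of a G84E peak, among them chr1:33414776-33415050 with 6.70 in WT. A further 524 restored sites (1.06%) overlapped the control peak by under 50 bp. At chr10:4857700-4857974 that overlap was 1 bp, with 15.6 in G84E and 15.1 in WT, while chr2:33215450-33215724 abutted a control peak and stayed inside the rule, with 13.6 in G84E and 17.9 in WT.

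G84E and WT gave closely matched counts at the additional shared sites. The median normalized tag count was 6.56 in G84E and 6.70 in WT, and the median log2 ratio of G84E over WT was −0.044, with a 5th percentile of −0.79 and a 95th percentile of 0.68. G84E peaks were 283 bp wide and WT peaks 274 bp, and the median log2 ratio of tag density, in tags per bp, was −0.090. At restored sites the median log2 ratio of counts was −0.21. A site of median depth held 29 G84E tags and 27 WT tags, for which the exact 95% interval of the log2 ratio ran from −0.84 to 0.78, so a change smaller than that was not detectable at a single such site. Across the additional shared sites the log2 counts of G84E and WT had a Pearson correlation of 0.66, and at restored sites 0.84. Both correlations are descriptions over peaks called in both libraries. The centres of the G84E and WT peaks lay a median of 43 bp apart at additional shared sites and 34 bp apart at restored sites.

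**Figure D1:**
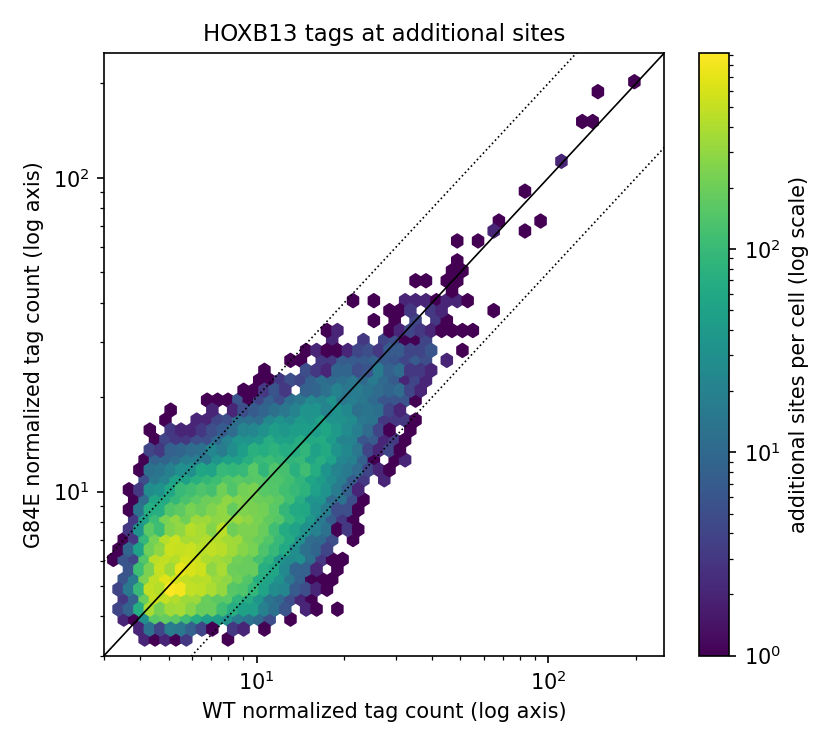
Normalized tag count of HOXB13 in G84E (y, log axis) against WT (x, log axis) at the 55496 additional shared sites. Colour gives the number of sites per cell, the solid line marks equal counts and the dotted lines a log2 ratio of 1 and −1. Most sites lie near the solid line at low counts, with the median site at 6.56 in G84E and 6.70 in WT.

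Few additional shared sites differed strongly between the 2 forms. G84E was below WT by more than 1 on the log2 scale at 1010 sites (1.82%), against 2.84% of all WT peaks shared with G84E. It was above WT by more than 1 at 559 sites (1.01%), against 0.815% of all WT peaks shared with G84E. The median log2 ratio went with the mean strength of the site. It was 0.0029 in the weakest of 10 equal groups of mean count and −0.16 in the strongest, and at restored sites of the same groups −0.052 and −0.32. In each of the 10 groups the additional shared sites had the higher median. These ratios use the values that chose the sites.

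The ratio of G84E over WT was slightly lower at sites with a control ATAC, control HDAC3, PC-3 HOXB13 or PC-3 H3K27ac peak, among restored sites as well. The median log2 ratio of G84E over WT was −0.18 at the 879 additional shared sites with a control ATAC peak and −0.041 at those without, and at restored sites −0.34 and −0.19. It was −0.14 with and −0.037 without a control HDAC3 peak, and at restored sites −0.33 and −0.19. With a PC-3 HOXB13 peak it was −0.11, and without one −0.030. With a PC-3 H3K27ac region it was −0.093 and without one −0.034, and at restored sites −0.24 and −0.20. Control HDAC1 went differently at restored sites, and hairpin HOXB13 in both classes. With a control HDAC1 peak it was −0.13 and without one −0.041, but at restored sites −0.16 with and −0.21 without. With a HOXB13 peak of the hairpin library it was −0.024 and without one −0.044, and at restored sites −0.086 and −0.21. The 5th to 95th percentiles overlapped almost wholly in each pair, from −0.92 to 0.56 with an ATAC peak and from −0.78 to 0.69 without. The part of site strength in these differences was not tested.

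The largest differences were at sites of modest count. The largest fall, at chr2:217357361-217357635, had 4.30 normalized tags in G84E (19 tags) and 19.4 in WT (78 tags), a log2 ratio of −2.17 (exact 95% interval −2.98 to −1.43). A PC-3 HOXB13 peak of 7.59 and PC-3 H3K27ac regions of 42.2 with the hairpin and 34.1 in the control lay over it. The next fall, at chr5:52220829-52221103, had 4.30 in G84E and 15.9 in WT (log2 −1.89, −2.71 to −1.13), with no peak of any other list. The other two falls were chr3:126250314-126250588 (4.98 in G84E and 18.1 in WT) and chr6:112067580-112067854 (5.66 in G84E and 19.4 in WT). The chromosome 6 site had a PC-3 HOXB13 peak. The intervals are not adjusted for the choice of the most extreme sites.

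The largest rise, at chr12:90287045-90287319, had 17.0 normalized tags in G84E (75 tags) and 4.72 in WT (19 tags), a log2 ratio of 1.85 (exact 95% interval 1.11 to 2.66). The next was chr5:120326768-120327042, with 15.4 in G84E and 4.47 in WT (log2 1.78, 1.02 to 2.62). The other two were chr2:29596063-29596337 (17.9 in G84E and 5.21 in WT) and chr6:71345725-71345999 (15.2 in G84E and 4.47 in WT). None of these 4 rises had a peak of any other list, as was the case at 80.2% of all additional shared sites. Over all sites past a log2 ratio of 1 in either direction, a PC-3 HOXB13 peak lay at 11.8% of the 559 rises and 16.9% of the 1010 falls. The share over all additional shared sites was 11.9%, so the rises did not stand apart in it. The median WT count was 4.97 at those rises and 11.7 at those falls, and the PC-3 share also went with WT strength.

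Among additional shared sites on chromosomes 1 to 22 and X met by fewer than 9 lists, the strongest fell into distinct kinds. The highest counts were at chr8:46850527-46850801, with 202.5 normalized tags in G84E and 197.4 in WT, and at chr8:46842255-46842529, with 150.9 in G84E and 128.6 in WT. A broad PC-3 H3K27ac region of 1195 normalized tags with the hairpin and 1593.9 in the control covered both, and the second also had a peak of 227.1 in the LNCaP hairpin HOXB13 library. Their authors' fold over the local background was 4.98 and 4.31, close to the 4-fold needed for a call. The site at chr9:66833715-66833989 (109.8 in G84E and 114.7 in WT) lay 256 bp from a control peak and was met by 8 of the 12 lists, including HOXB13 with the hairpin (111.7). The sites at chr1:121354194-121354468 (75.6 in G84E and 67.8 in WT) and chrX:61712500-61712774 (69.0 in G84E and 64.3 in WT) were met by 8 and 4 lists. Their fold over the local background was 4.04 on chromosome 1 and 4.54 on chromosome X, and it was 16.2 at the chromosome 9 site. Each of these 5 sites had a peak in a PC-3 H3K27ac library. No input library was used and the headers name no excluded regions. Whether the signal at these 5 sites was HOXB13 binding was not tested.

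A different kind was the site at chr12:79529222-79529496, with 74.0 normalized tags in G84E and 92.1 in WT. It stood 41.4-fold over its local background in WT, lay 2729 bp from the nearest control peak and had no peak in any other list. After its values were seen, 3 more strong sites with no peak of another list were picked out. These were chr16:78779436-78779710 (50.0 in G84E and 49.7 in WT, 56.3-fold over local), chr5:26368937-26369211 (40.5 in G84E and 52.1 in WT, 33.4-fold) and chr7:16755403-16755677 (52.3 in G84E and 47.7 in WT, 14.7-fold). Their strength and the lack of a peak in the other lists are how these 3 were chosen, so neither is a result. The nearest control HOXB13 peak lay 1088 bp away on chromosome 16, 3062 bp on chromosome 5 and 8439 bp on chromosome 7.

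Most additional shared sites, like most WT-alone sites, had no called peak in the lists outside the rule. No peak of the 9 lists outside the rule was found at 44531 of them (80.2%), against 52.0% of the restored sites, 84.2% of the WT-alone sites and 73.3% of all WT peaks. An ATAC peak of control cells lay at 879 additional shared sites, or 1.58% (Wilson 95% interval 1.48 to 1.69), against 12.2% of restored sites and 5.11% of all WT peaks. The difference from restored sites was −10.6 percentage points, with a Newcombe 95% interval that excluded 0, as it did for all 6 lists compared with the restored sites. A control HDAC3 peak lay at 1443 additional shared sites, or 2.60%, against 16.7% of restored sites and 6.99% of all WT peaks (difference from restored −14.1 points). A control HDAC1 peak lay at 263, or 0.474%, against 1.78% of restored sites and 1.06% of all WT peaks. Tags within called peaks were 2.46% of the control ATAC library, 7.63% of the control HDAC3 library and 3.73% of the HDAC1 library. A site without a called peak is therefore not shown to be closed or free of a deacetylase.

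Against the WT-alone sites the differences in open chromatin and deacetylases were small in percentage points, though the shares themselves were low. An HDAC3 peak lay at 2.79% of WT-alone sites and an HDAC1 peak at 0.823%, against 2.60% and 0.474% of additional shared sites. An ATAC peak lay at 2.07% of WT-alone sites, a difference of −0.489 points (95% interval −0.635 to −0.343). The difference was −0.189 points for HDAC3 (−0.366 to −0.0104; −0.178 points, with an interval that included 0, on chromosomes 1 to 22 and X) and −0.349 points for HDAC1. Against additional G84E sites called with G84E alone, the same differences were 0.605 points for ATAC, 1.13 for HDAC3 and −0.0182 for HDAC1, so the direction for ATAC and HDAC3 turned with the list that supplied the sites for comparison.

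**Figure D2:**
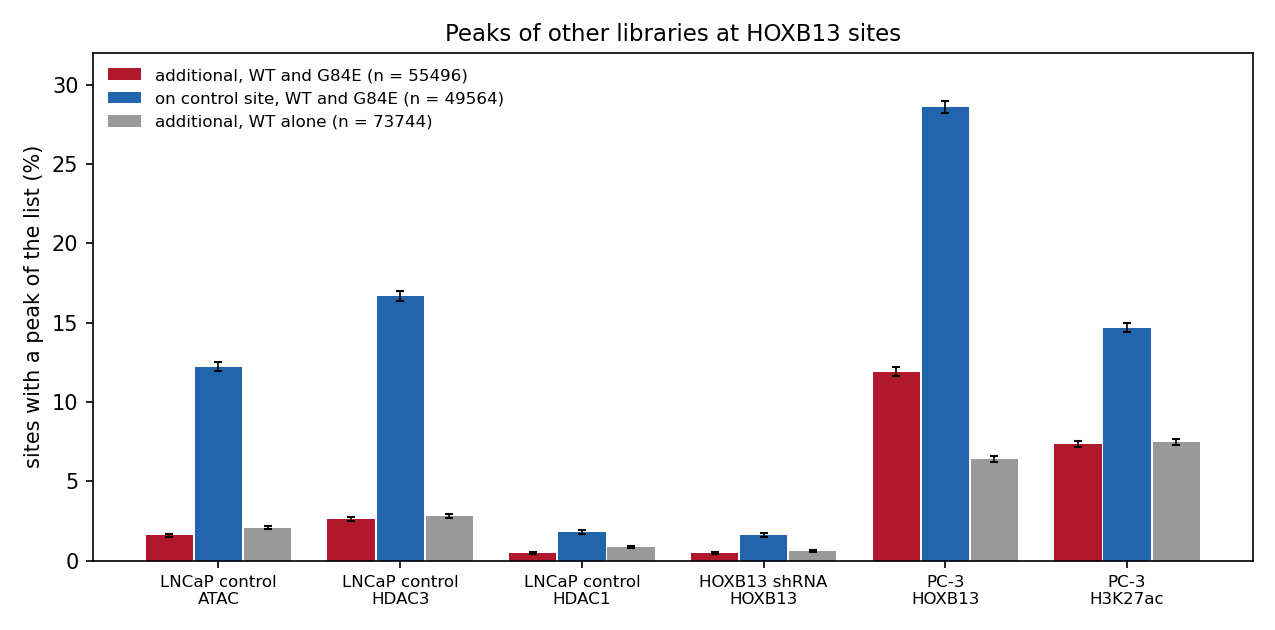
Percentage of HOXB13 sites with a peak in each of 6 lists that the rule did not use (x), for additional sites shared by WT and G84E (red), restored sites on a control peak (blue) and additional sites called with WT alone (grey). Bars start at 0 and error bars are Wilson 95% intervals for counting error. Red bars stand below blue in every list, and above grey for PC-3 HOXB13 (11.9% against 6.40%).

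A HOXB13 peak of the hairpin library, in which HOXB13 was lowered, lay at 264 additional shared sites, or 0.476%, against 1.62% of restored sites and 0.870% of all WT peaks. The share was 0.601% at WT-alone sites, a difference of −0.125 points (−0.205 to −0.0442) whose sign changed between alternatives. The strongest of the 264 sites with fewer than 9 lists over them included the chromosome 8 and 9 sites above. Also among them were chr7:150345271-150345545 (33.0 in G84E, 50.7 in WT and 4.87 with the hairpin alone) and chr5:11445-11719 (27.4 in G84E, 36.3 in WT and 165.3 with the hairpin alone). At the first the re-expression libraries stood well above the hairpin library, and at the second the hairpin library was the highest.

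The ATAC and HDAC3 shares were below those of restored sites in each of the 10 groups of WT tag count. In the weakest of the 10 groups of WT tag count, an ATAC peak lay at 1.44% of additional shared sites (95% interval 1.13 to 1.85) against 6.18% of restored sites. In the strongest it lay at 1.67% (1.25 to 2.23) against 17.8% of restored sites and 5.14% of WT-alone sites (15 of 292, 3.14 to 8.30). WT counts in that group ran up to 197.4 at additional shared sites and 6661.7 at restored sites. Strength was thus matched only in part there, also in the standardised differences below. For HDAC3 the weakest group gave 2.46% against 7.15% of restored sites, and the strongest 2.64% against 24.5% of restored sites and 7.53% of WT-alone sites. ATAC and HDAC3 shares at restored sites thus climbed with strength, while those at additional shared sites stayed nearly level. Standardised over the 10 groups, the difference from restored sites was −7.29 points for ATAC and −9.22 points for HDAC3, and from WT-alone sites −1.10 points for ATAC and −0.990 points for HDAC3.

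**Figure D3:**
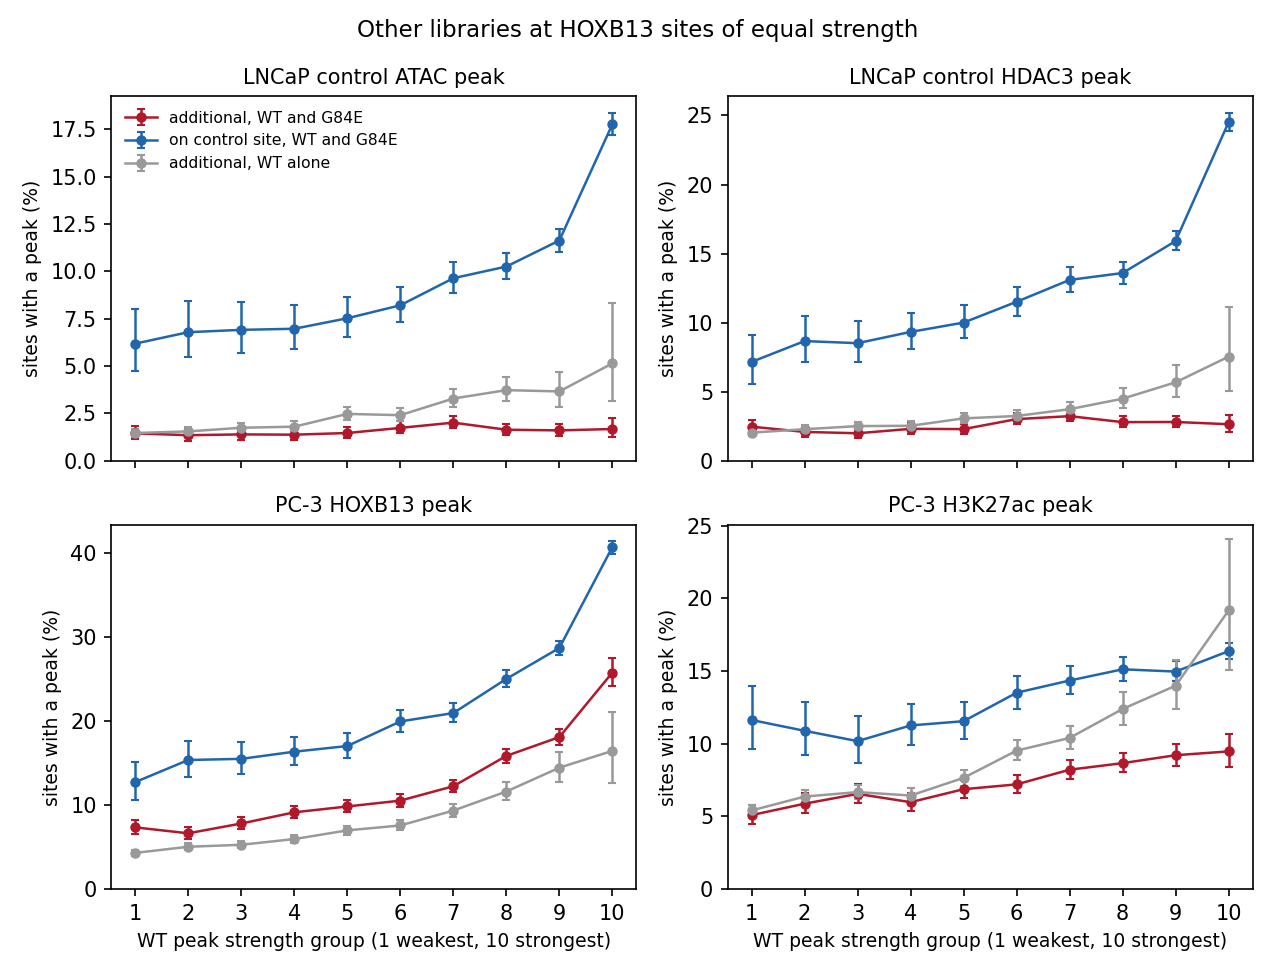
Percentage of sites with a control ATAC, control HDAC3, PC-3 HOXB13 or PC-3 H3K27ac peak (y) in 10 equal groups of WT tag count (x, 1 weakest, 10 strongest), for additional shared (red), restored (blue) and WT-alone (grey) sites with Wilson 95% intervals. Red stays near 1.67% for ATAC and 2.64% for HDAC3 up to the strongest group, while PC-3 HOXB13 reaches 25.8% there.

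The few additional shared sites in open chromatin more often had the other marks than those outside it, as was also the case in the other classes. Of the 879 with an ATAC peak, 53.5% had an HDAC3 peak, 19.3% an HDAC1 peak, 38.3% a PC-3 HOXB13 peak and 52.6% a PC-3 H3K27ac region. Of those without an ATAC peak, the shares were 1.78% for HDAC3, 0.170% for HDAC1, 11.5% for PC-3 HOXB13 and 6.62% for PC-3 H3K27ac. None of the other 5 lists had a peak at 190 of the 879. At restored sites with an ATAC peak the shares were 57.7% for HDAC3, 8.66% for HDAC1, 42.3% for PC-3 HOXB13 and 34.8% for PC-3 H3K27ac. At WT-alone sites with an ATAC peak they were 53.6% for HDAC3, 27.3% for HDAC1, 26.2% for PC-3 HOXB13 and 56.4% for PC-3 H3K27ac. Of the 263 additional shared sites with an HDAC1 peak, 77.2% lay in PC-3 H3K27ac and 67.3% had an HDAC3 peak. The same shares were 71.1% and 72.4% at restored sites with an HDAC1 peak, and 72.2% and 64.9% at such WT-alone sites. ATAC, HDAC3 and HDAC1 peaks met at 125 additional shared sites.

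Of those 125, 32 lay on chromosomes 1 to 22 and X and were met by fewer than 9 lists, and the 4 strongest of these follow. At chr9:73216540-73216814 the normalized tag count was 9.73 in G84E and 5.96 in WT, with 14.3 for HDAC1, 17.6 for HDAC3 in the control and ATAC counts of 9.03 with the hairpin and 9.13 in the control. At chr14:24835897-24836171 it was 5.21 in G84E and 10.4 in WT (exact 95% interval of the log2 ratio −1.80 to −0.24), with ATAC counts of 4.71 with the hairpin and 6.64 in the control. At chr10:112431960-112432234 it was 6.56 in G84E and 8.19 in WT, and PC-3 H3K27ac regions of 24.4 with the hairpin and 10.0 in the control lay over it. The last, chr1:22584438-22584712 (7.02 in G84E and 8.44 in WT), was the only one of the 4 with an HDAC3 peak in the hairpin library, of 9.88 against 17.6 in the control, and it was the only one without an ATAC peak there.

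PC-3 cells shared a part of the additional sites. A PC-3 HOXB13 peak lay at 6610 additional shared sites, or 11.9% (95% interval 11.6 to 12.2), against 28.6% of restored sites, 6.40% of WT-alone sites and 14.4% of all WT peaks. The difference from WT-alone sites was 5.51 points (5.18 to 5.83), and 3.36 points (2.92 to 3.79) when standardised for WT strength. Unlike the ATAC and HDAC3 shares, the PC-3 share climbed with strength, from 7.34% in the weakest of the 10 groups to 25.8% in the strongest. Restored sites still stood above it, with 12.7% in group 1 and 40.7% in group 10. The peak centres of WT and PC-3 lay a median of 53 bp apart at additional shared sites, 40 bp at restored sites and 63 bp at WT-alone sites.

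Seen from PC-3, 6610 of its 70766 HOXB13 peaks (9.34%) met an additional shared site, and 14178 (20.0%) met a restored site. Of the 51516 PC-3 peaks with no LNCaP control peak, 12.5% met an additional shared site and 8.94% a WT-alone site. The PC-3 normalized tag count had a median of 13.4 at additional shared sites, 17.0 at restored sites, 12.3 at WT-alone sites and 12.7 over all PC-3 peaks. The share of PC-3 peaks on an additional shared site was 8.21% in the weakest of 10 groups of PC-3 tag count and 9.98% in the strongest. The same shares for restored sites were 12.1% and 40.0%. Strong PC-3 peaks were thus nearly as seldom on additional shared sites as weak ones.

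H3K27ac of PC-3 control cells covered 4077 additional shared sites, or 7.35%, against 14.7% of restored sites and 9.78% of all WT peaks. The difference from WT-alone sites was −0.148 points, with an interval of −0.436 to 0.141 that included 0. When standardised for WT strength it was −2.22 points (−2.64 to −1.80). With the sites taken from the G84E list, against G84E-alone sites, the difference was 1.49 points (1.22 to 1.77). The direction thus turned with the list that supplied the sites. The share was 23.2% at additional shared sites with a PC-3 HOXB13 peak and 5.20% at those without. The same split gave 30.3% and 5.94% at WT-alone sites, and 32.2% and 7.68% at restored sites. At additional shared sites the ATAC share was 5.10% with and 1.11% without a PC-3 HOXB13 peak, and the HDAC3 share 8.44% with and 1.81% without. At WT-alone sites these were 8.49% and 1.63% for ATAC, and 11.9% and 2.17% for HDAC3. Restored sites gave 18.1% and 9.89% for ATAC, and 27.6% and 12.3% for HDAC3. Counted by combination, 45324 additional shared sites (81.7%) had none of the 6 lists, 4785 had PC-3 HOXB13 only, 2178 had PC-3 H3K27ac only and 1126 had both of these only. None of the 6 lists had a peak at 54.8% of restored sites and 85.8% of WT-alone sites.

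With the same limits on chromosomes and lists, 1415 additional shared sites had a PC-3 HOXB13 peak inside PC-3 H3K27ac, and the strongest were the chromosome 9 and chromosome 1 sites met by 8 lists. The next was chr7:80399400-80399674, with 28.1 normalized tags in G84E and 50.9 in WT (log2 −0.86, exact 95% interval −1.19 to −0.53) and a PC-3 HOXB13 count of 64.7. PC-3 H3K27ac there was 86.5 with the hairpin and 54.8 in the control. The last, chr1:222890339-222890613, had 31.9 in G84E and 31.0 in WT, a PC-3 HOXB13 count of 17.7 and H3K27ac of 13.4 in the control with no region called with the hairpin.

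Additional shared sites lay about as far from the nearest control site as WT-alone sites did. The nearest control HOXB13 peak was a median of 9838 bp from additional shared sites and 9953 bp from WT-alone sites. The 5th percentiles were 555 bp and 610 bp, and sites overlapping a control peak belong to neither class. For additional shared sites it lay within 290 bp, the width of a control peak, at 1525 sites (2.75%), within 1000 bp at 4640 (8.36%) and farther than 10000 bp at 27411 (49.4%). The nearest control ATAC peak was a median of 46663 bp from additional shared sites, 29854 bp from restored sites and 49297 bp from WT-alone sites. For HDAC3 the medians were 33304 bp from additional shared sites, 18627 bp from restored sites and 35163 bp from WT-alone sites.

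The sites next to a control peak differed from the rest. Within 290 bp of a control peak, 5.97% had an ATAC peak (95% interval 4.89 to 7.27), 10.5% an HDAC3 peak, 20.2% a PC-3 HOXB13 peak and 16.7% PC-3 H3K27ac. Farther than 50000 bp the shares were 1.06% for ATAC (0.771 to 1.46), 1.87% for HDAC3, 11.3% for PC-3 HOXB13 and 3.90% for PC-3 H3K27ac. Beyond 290 bp the PC-3 HOXB13 share stayed between 11.3% and 12.5%, whereas the H3K27ac share was lower in each step of distance. Control HDAC3 peaks were 471 bp wide and PC-3 HOXB13 peaks 390 bp. Within 290 bp, a peak centred on the neighbouring control site could therefore also meet the additional site. The median WT count was 8.69 within 290 bp and 5.96 beyond 50000 bp. The part of width or strength in these shares was not tested.

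**Figure D4:**
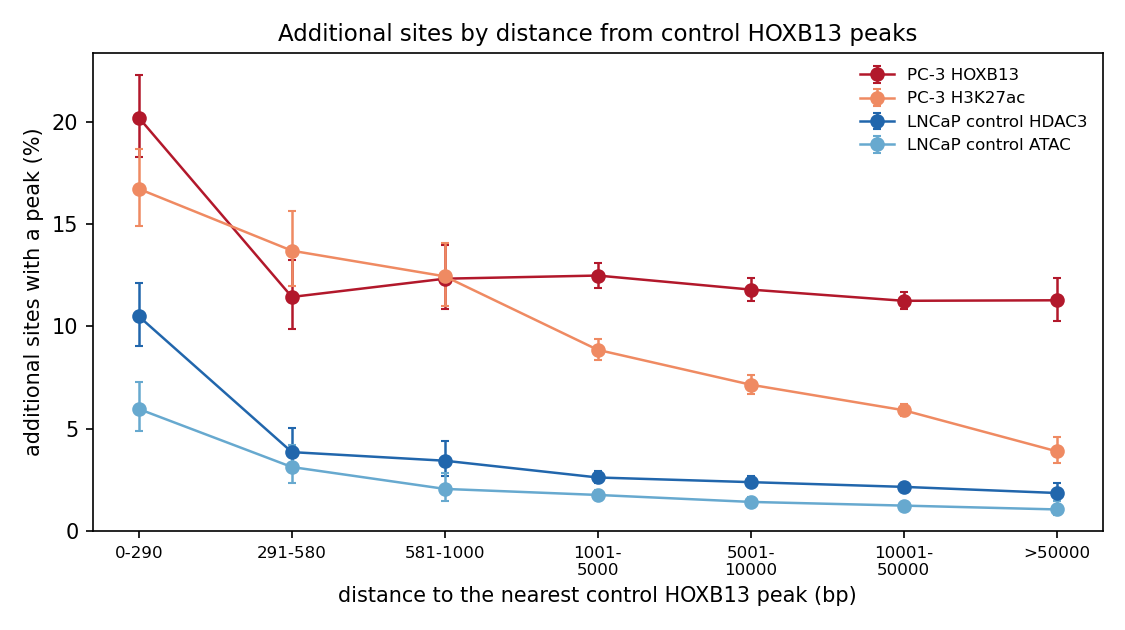
Percentage of additional shared sites with a PC-3 HOXB13, PC-3 H3K27ac, control HDAC3 or control ATAC peak (y) by distance to the nearest LNCaP control HOXB13 peak in bp (x, 7 unequal steps), with Wilson 95% intervals. PC-3 HOXB13 is level beyond 290 bp, while H3K27ac goes down to 3.90% and ATAC to 1.06% in the farthest step.

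After knockdown of HOXB13, the share of HDAC3 and ATAC peaks still called at these sites was not detectably different from that at restored sites. The comparison took peaks at additional shared sites that met no restored site. Of 1439 control HDAC3 peaks there, 689 (47.9%, 95% interval 45.3 to 50.5) had an HDAC3 peak with the hairpin. The same share was 48.9% at restored sites and 47.7% of all control HDAC3 peaks, and the difference from restored sites was −1.02 points (−3.81 to 1.78). Of 898 control ATAC peaks, 510 (56.8%) had an ATAC peak with the hairpin, against 55.2% at restored sites and 50% of all control ATAC peaks. That difference was 1.55 points (−1.94 to 4.98). Neither interval shows that the shares are alike, and the sign of both differences changed between alternatives. With the better-scoring 50% of every list the HDAC3 difference was 7.25 points (2.55 to 11.9). HDAC3 peaks were 365 bp wide with the hairpin and 471 bp in the control, and the median log2 count ratio of hairpin over control was −0.50 at additional shared sites, −0.51 at restored sites and −0.44 over all HDAC3 peaks called in both.

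Hairpin HDAC3 peaks at additional shared sites were more often without a control counterpart than those at restored sites. They were less often without one than all hairpin HDAC3 peaks. No control counterpart was found for 407 of 1021 hairpin HDAC3 peaks at additional shared sites (39.9%), against 30.6% at restored sites and 47.8% of all hairpin HDAC3 peaks. The difference from restored sites was 9.23 points (6.02 to 12.5). For ATAC it was 235 of 765 (30.7%), against 29.7% at restored sites and 38.1% of all hairpin ATAC peaks, a difference of 1.06 points (−2.36 to 4.64). In PC-3, 3372 H3K27ac loci called in both libraries held an additional shared site and no restored site. Their normalized tag count had a median of 80.6 with the hairpin and 64.2 in the control, and the median log2 ratio of hairpin over control was 0.29, against 0.34 at the 6703 loci with a restored site and 0.27 over all 37733 loci. In the 1332 loci where the additional shared site also had a PC-3 HOXB13 peak, the median was 0.31.

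Chromosomes differed in how additional shared and restored sites were divided. Over chromosomes 1 to 22 and X, additional shared sites made up 52.9% of the sum of both classes. The share was 57.8% on chromosome X (95% interval 55.5 to 60.0), 56.9% on chromosome 13, 56.3% on chromosome 4 and 56.0% on chromosome 18. It was 45.8% on chromosome 19 (43.1 to 48.5), 46.4% on chromosome 22, 47.0% on chromosome 17 and 48.2% on chromosome 16. Over the 23 chromosomes, the ratio of additional shared to restored sites had a Pearson correlation of −0.74 and a Spearman correlation of −0.86 with protein-coding genes per Mb of RefSeq. This is a description over chromosomes of the same libraries, which also differ in base composition, and it uses the HOXB13 lists that chose the sites. WT-alone sites also outnumbered restored sites by a larger factor on chromosomes X and 13 than on chromosomes 19 and 22. There were 1542 WT-alone and 777 restored sites on chromosome X, and 2092 and 1213 on chromosome 13. The counts were 888 and 717 on chromosome 19, and 506 and 471 on chromosome 22. The relation is thus not shown to be particular to additional shared sites. No correlation was computed for WT-alone sites.

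**Figure D5:**
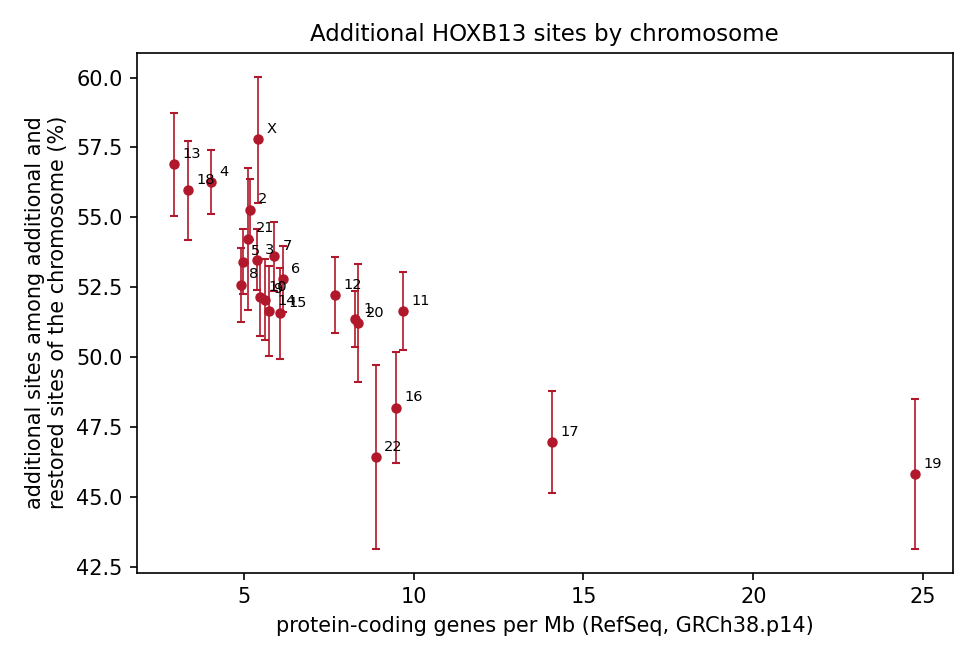
Additional shared sites as a percentage of additional shared and restored sites on each chromosome (y, Wilson 95% intervals) against protein-coding genes per Mb in RefSeq (x). Each point is 1 chromosome with its name. Gene-dense chromosome 19 lies lowest at 45.8%, and chromosome X highest at 57.8%.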

How the data were processed

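Of 16 samples, 12 had peak lists used here; 4 LNCaP H3K27ac samples were not analysed here. The submitters' processing notes name Bowtie2, HOMER 4.2 and hg19. The authors called peaks in each library by findPeaks, at a false discovery rate of 0.001 and without an input library, per the file headers. Factor-style peaks, of 1 width per library, had to exceed the local 10000 bp 4-fold; PC-3 H3K27ac regions were stitched from windows of 1000 bp. The deposited signal is the normalized tag count, scaled by the authors to 10000000 tags. For ranking, the deposited findPeaks score was used, and the deposited fold over local background and focus ratio, a fraction, were used as the authors' values. The headers name no excluded regions.

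An overlap of at least 1 bp made peaks shared, and the highest count was used where several met. Tags were recovered from the header totals, and values under 10 came out whole within 0.1 tags (100%). Shares have Wilson, differences Newcombe and region ratios exact Clopper-Pearson 95% intervals. Standardisation weighted 10 equal groups of WT count. The scripts were tested on simulated data. Members and lists were chosen with earlier results of these data known. Named regions, on chromosomes 1 to 22 and X and under 9 lists, were the 6 strongest by mean count, the 4 largest rises and 4 largest falls with a mean of at least the median of 6.74, and the 4 strongest with ATAC, HDAC3 and HDAC1 peaks, with PC-3 HOXB13 in H3K27ac, and with a hairpin HOXB13 peak. Coordinates are hg19. No hg19 sequence or annotation was used, so motifs, nearest genes and gene lists were not analysed here. Gene density came from RefSeq (GRCh38.p14). Python 3.11.15, numpy 2.4.6, pandas 2.3.3, scipy 1.17.1 and matplotlib 3.10.9 were used.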

Additional observations from a re-analysis of the deposited data

How the results depend on the processing

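All differences from restored sites in the shares with an ATAC, HDAC3, HDAC1, hairpin HOXB13, PC-3 HOXB13 or PC-3 H3K27ac peak kept their direction and an interval excluding 0 under the alternatives run, and so did the PC-3 HOXB13 difference from WT-alone sites. Of 140 recomputed differences of shares, 117 kept their sign and whether the interval excluded 0, 11 changed sign, and of the others 6 gained and 6 lost an interval excluding 0. The cause was not tested. Taking the sites from the G84E list, with G84E-alone sites for comparison, the differences were 0.605 points for ATAC, 1.13 for HDAC3, −0.0182 for HDAC1, 0.0634 for hairpin HOXB13 and 1.49 for PC-3 H3K27ac. From WT-alone sites, HDAC3 was −0.0407 with centres within 100 bp and −0.178 on chromosomes 1 to 22 and X. Hairpin HOXB13 was −0.0170 with centres within 100 bp, −0.0452 with the better-scoring 50% of every list, −0.0246 with lists of the control's number of peaks and 0.0255 with peaks at or above the control median count. PC-3 H3K27ac was −0.316 with an overlap of 50% of the shorter peak, −1.30 with the better-scoring 50% and −1.59 with equal lists. It was −1.49 with that median floor, −0.310 without regions met by 9 or more lists and −2.22 when standardised for WT strength. The HDAC3 retention difference from restored sites was 7.25 points in the better-scoring 50%, 0.576 with an overlap of 50%, 0.819 without regions met by 9 or more lists and 1.08 at equal control strength. That of ATAC was −1.13 with close centres and −0.972 at equal control strength. All of these but 7.25 had intervals that included 0. The number of additional shared sites was 30999 with the better-scoring 50%, 20843 with equal lists and 14793 with the median floor, where fewer peaks enter. The median log2 ratio of G84E over WT was −0.0593 with close centres, −0.0917 with the better-scoring 50%, −0.0858 with equal lists, −0.0585 with the median floor, −0.0904 as tag density and 0.166 relative to restored sites. The share with an HDAC1 peak was 0.123% with close centres, against 0.474% by any overlap, and that with an ATAC peak 1.01% in the better-scoring 50%, against 1.58%. No paired analysis was possible because each group held 1 library. Depth limits the ratio at single sites, and places without a called peak have no count.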
